A study of Gasterosteus aculeatus with 12 samples.

Results

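The peaks described here are the ATACseq peaks on unplaced scaffolds of the threespine stickleback assembly gasAcu1, taken as every peak that the deposited list assigns to the joined sequence chrUn. They number 7044 of 35808 peaks, or 19.7% of the list. The peaks were called in primary spermatocytes, cells of the testis that are passing through meiosis I, which were sorted by light scatter from 3 marine and 3 freshwater pools of wild-derived strains from the River Tyne, with 50000 sorted cells per library. Each pool held the testes of 3 adult males taken late in a winter light regime, so a library is an average over several fish, and a naked DNA library was made from each of the same 6 pools. All 6 ATACseq libraries were merged into 1 list before deposition, so no peak has a value per pool, no spread between pools can be given, and the 2 ecotypes were not compared. No gene, marker or sequence of gasAcu1 was at hand, so the labelled cell type could not be checked against marker genes.

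In ATACseq a transposase inserts adapters where DNA is not wrapped tightly in chromatin, so that promoters, enhancers and other accessible sites gather reads. An assembly places scaffolds on chromosomes through genetic or physical maps, and the scaffolds it cannot place are often short or rich in repeated sequence. In gasAcu1 they are joined end to end into chrUn, so a position along it gives the order of joining and not a place in the nucleus.

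Each peak carries a fold enrichment, the ratio of reads at its summit to the background that the peak caller MACS2 assigned to it. A low ratio can come from few reads at the summit or from a high background, and the deposited values allow the 2 to be separated. The caller computes the ratio with 1 read added to both terms and takes its p-value from a Poisson distribution, so a ratio and a p-value together fix both terms. With this, the p-value of 35805 of 35808 peaks was matched to within 0.02 on the −log10 scale by a whole number of reads times 0.998. At the lowest ratios 1 read more or less moves the p-value so little that a match there was nearly assured. The background had a floor of 62.8 reads, below which no peak lay, and 86.6% of backgrounds above the floor fell within 0.01 of a whole number. Backgrounds are given below as reads, and as multiples of the floor.

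Unplaced scaffolds had more peaks per Mb than each of the 21 chromosomes. The difference lay mainly in peaks with a high background and in peaks with a low fold enrichment. Over all peaks they had 112.6 per Mb, against 71.8 ± 7.89 on chromosomes (SD, n = 21) and at most 94.9 on chromosome XI. Peaks with a background of at least 1.5 times the floor numbered 48.6 per Mb on unplaced scaffolds. This was 2.90 times the 16.8 ± 2.93 of chromosomes (SD, n = 21), which ranged from 11.4 on chromosome XIII to 22.4 on chromosome XI. Peaks with a lower background numbered 64.0 per Mb, against 55.0 ± 5.77 on chromosomes, and lay within the chromosome range of 44.8 to 72.5. Here and below, each class is counted per Mb of the whole sequence. The background is known only at summits, so the length of sequence with a given background is not known.

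**Figure D1:**
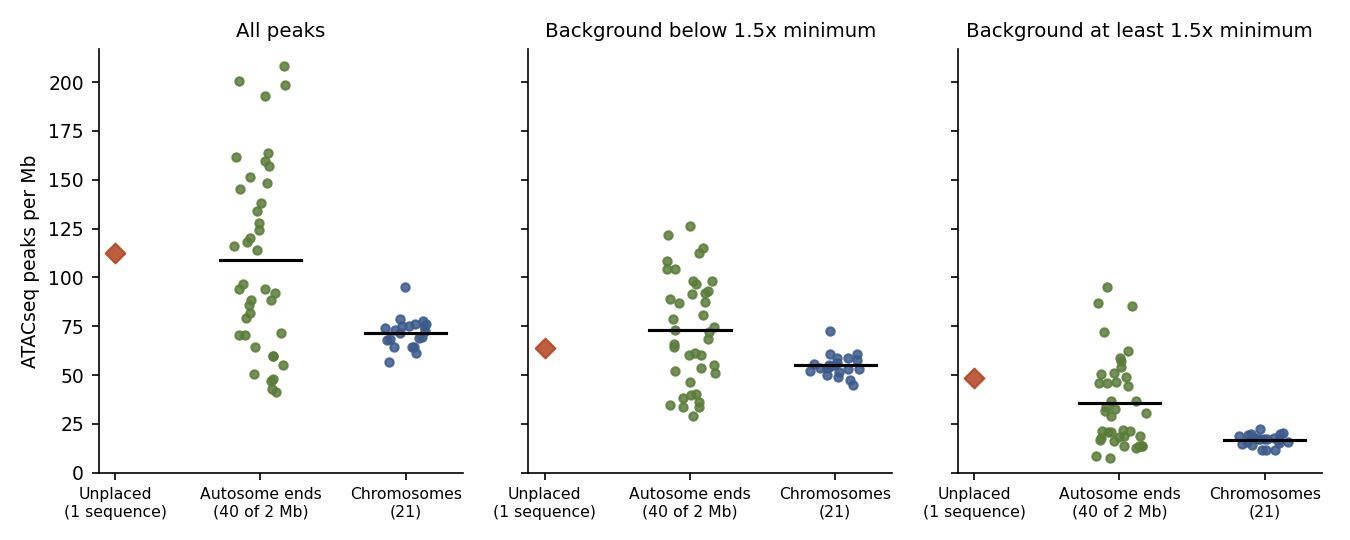
ATACseq peaks per Mb on unplaced scaffolds (diamond, 1 joined sequence), in the first and last 2 Mb of 20 autosomes (40 points) and on 21 chromosomes (points), for all peaks, for those with a background below 1.5 times the floor ("minimum") and for those at or above it. Values in all panels are per Mb of the whole sequence or end. Lines mark means, and autosome ends are also part of their chromosomes. The unplaced value of 48.6 in the right panel lies above all chromosomes but not above all autosome ends. That of 64.0 in the middle panel lies within the range of chromosomes.

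The ratio of unplaced to chromosome density was largest at high backgrounds. At the floor, unplaced scaffolds had 26 peaks per Mb and chromosomes 23.6 on average. Above the floor and up to 1.2 times the floor they had 16.8 against 15.8, and between 1.2 and 1.5 times 21.2 against 15.5. Between 1.5 and 2 times the floor they had 19.8 against 10.7, between 2 and 4 times 17.4 against 4.78, and at 4 times or more 11.4 against 1.29, or 8.83 times as many. In all, 77.9% of the excess of 40.9 peaks per Mb over the chromosome mean came from peaks with a background of at least 1.5 times the floor. Split by fold enrichment instead, 93.6% of the excess came from peaks below 5. The same peak can count in both shares. Leaving out peaks at or above a chosen background brought the density toward that of the chromosomes, to 1.28 times their mean below 2 times the floor, 1.16 below 1.5 times and 1.09 below 1.2 times. High backgrounds were a larger share of unplaced peaks, so these ratios had to fall. They restate the classes above and are no further support. The limits of 1.5 and 4 times the floor were chosen after the values had been seen.

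Of the unplaced peaks, 43.2% had a background of at least 1.5 times the floor (95% Wilson interval 42.0% to 44.3%, counting error only), against 27.3% of the whole list and between 17.9% and 27.9% on single chromosomes. Over 10 equal parts of the joined unplaced scaffolds this share ran from 20.7% to 52.8%, far beyond the interval. A background of at least 4 times the floor was found in 712 unplaced peaks, or 10.1%, against 3.43% of the list and at most 3.09% on a chromosome. Unplaced peaks made up 82 of the 100 highest backgrounds in the list, against 19.7% of all peaks. The highest was 3961 reads, 63.1 times the floor, at chrUn:59517702-59518605 (gasAcu1), where 4385 reads at the summit gave a fold enrichment of only 1.11. The next were neighbours at chrUn:22882854-22883387 and chrUn:22883697-22884380, with backgrounds of 2606 and 2592 reads and fold enrichments of 1.29 and 1.07. These peaks were chosen after their values had been seen. On chromosomes the highest background was 3522 reads.

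Reads at the summit did not set unplaced peaks apart as the background did. Their median was 297 reads, within the range of chromosome medians of 269 to 361. Split by background, the medians went opposite ways. Unplaced peaks with a background of at least 1.5 times the floor had a median of 357 reads at the summit, above the 258 to 339 of chromosomes. Those below 1.5 times the floor had a median of 250 reads, under the 269 to 396 of chromosomes. Peaks at the floor had a median fold enrichment of 4.17 on unplaced scaffolds and 6.14 over all chromosomes.

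Fold enrichments on unplaced scaffolds were low for the most part, with a median of 2.62 (quartiles 1.73 and 5.79), against chromosome medians of 3.07 to 4.47. Peaks with a fold enrichment of 5 or more are called strong here. They numbered 1999 on unplaced scaffolds, or 28.4% (95% Wilson interval 27.3% to 29.4%, counting error only). The share was 38.1% in the whole list and 35.8% to 47.2% on chromosomes. In 10 equal parts of the joined unplaced scaffolds it ran from 22.7% to 52.1%, far beyond that interval. Among unplaced peaks with a background below 1.5 times the floor, 38.5% were strong, under the 42.0% to 53.3% of chromosomes. Among those at or above it 15% were, within the chromosome range of 12.6% to 22.6%. Per Mb, strong peaks numbered 32.0, within the chromosome range of 23.8 to 39.3. On either side of the limit of 5 lay 434 unplaced peaks between 4 and 5 and 292 between 5 and 6.

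Splitting peaks by strength and background together gave 4 classes. Weak peaks with a background of at least 1.5 times the floor numbered 41.3 per Mb on unplaced scaffolds, against a chromosome mean of 13.8 and a highest chromosome value of 19.2. Strong peaks with such a background numbered 7.29 per Mb, against a mean of 2.99 and a highest value of 3.87. Weak peaks with a lower background numbered 39.4 per Mb, against a mean of 28.6 and a highest value of 36.4, so that these too lay above every chromosome. Strong peaks with a lower background numbered 24.7 per Mb on unplaced scaffolds and 26.4 on chromosomes on average, and were the only class of the 4 that lay within the chromosome range, which was 20.9 to 36.1. Unplaced scaffolds thus exceeded all chromosomes in 3 of the 4 classes, most so in the weak peaks of high background. Fold enrichment is the ratio of summit reads to background, so both splits share a term.

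A peak with a high background passes the caller's q-value limit at a smaller ratio. The lowest fold enrichment of an unplaced peak was 1.47 at the floor and 1.07 at 4 times the floor or more. On chromosomes the distribution of fold enrichments had a second mode at high values, where unplaced scaffolds had a smaller share of peaks. The bin of 11.3 to 13.5 held 5.57% of peaks on chromosomes. On unplaced scaffolds the same bin held 3.48% (245 peaks), against 3.07% (216) in the bin below it and 2.94% (207) in the bin above. Whether this small rise is a mode was not tested. Autosome ends had 4.40% in the bin of 13.5 to 16. At the low end, 137 unplaced peaks (1.94%) lay below 1.19, against 61 (0.212%) on all chromosomes together.

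**Figure D2:**
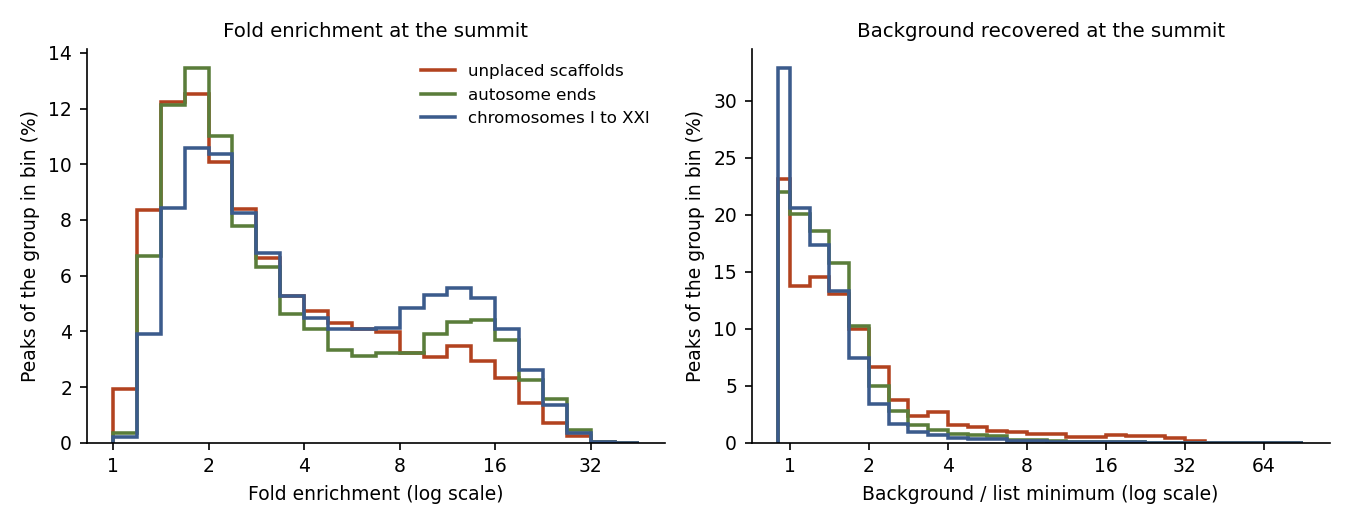
Left, share of peaks (%) by fold enrichment on a log axis for unplaced scaffolds, autosome ends and chromosomes I to XXI; right, share by background divided by the floor ("list minimum"), with peaks at the floor in the first bin. Unplaced peaks are shifted to low fold enrichments and have a long tail of backgrounds, with 10.1% at 4 times the floor or more, against 3.05% at autosome ends and 1.79% on chromosomes.

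The few highest fold enrichments on unplaced scaffolds nevertheless reached those of chromosomes, where the highest was 33.7. High values as a set lay lower on unplaced scaffolds, with a 99th percentile of 22.6 against 24.3 over all chromosomes. The highest fold enrichment of the whole list, 34.0, was at chrUn:34241316-34243695, a peak of 2380 bp with 2171 reads at the summit and a background at the floor. The next highest on unplaced scaffolds were 33.0, the 4th highest of the list, at chrUn:44414001-44423242, a peak of 9242 bp that was also the third widest on unplaced scaffolds, 30.9 at chrUn:58018923-58024124, 30.8 at chrUn:6956820-6958627 and 30.7 at chrUn:25787635-25790622. All 5 had backgrounds between 1 and 1.16 times the floor. Of the 100 highest fold enrichments in the list, 13 were unplaced, against 19.7% of all peaks.

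Unplaced peaks were narrower over most of their distribution, but not among the widest. Their median width was 599 bp (quartiles 329 and 1203 bp), below the 637 to 868 bp of chromosome medians. The upper quartile over all chromosomes was 1443 bp. The 90th percentile was 2045 bp on unplaced scaffolds and 2158 bp on chromosomes, and the 99th percentile 4560 and 3998 bp. Among strong peaks the median was 1511 bp on unplaced scaffolds and 1556 bp on chromosomes, and among the others it was 439 bp on unplaced scaffolds and 402 bp on chromosomes. Peaks of at least 3 kb made up 3.83% of unplaced peaks, 3.22% of those on chromosomes and 4.37% of those at autosome ends. Of the 100 widest peaks in the list, 37 were unplaced, against 19.7% of all peaks. The widest, of 14707 bp, was at chrUn:29698140-29712846 with a fold enrichment of 16.2, and only 1 peak of the list was wider. The next on unplaced scaffolds were peaks of 10002 bp at chrUn:55344951-55354952, with a fold enrichment of 8.24 over a background of 252 reads, of 9242 bp at the site of the second highest fold enrichment given above, of 9164 bp at chrUn:48303114-48312277 and of 8878 bp at chrUn:28700285-28709162. In total, peaks covered 10.5% of unplaced bases, against 5.50% to 9.72% on chromosomes.

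Neighbouring unplaced peaks lay close together. The median gap between them was 2157 bp (quartiles 560 and 8455 bp), against chromosome medians of 3954 to 6787 bp. Between strong peaks alone the median gap was 13304 bp on unplaced scaffolds and 14041 bp on chromosomes on average, a difference within the spread of chromosomes (exact permutation p = 0.727). Of the gaps between unplaced peaks, 23.2% were under 500 bp, against 16.2% over the whole list and 10.9% to 16.8% on chromosomes. Gaps of 50 kb or more were fewer, at 163 gaps or 2.31%, against 5.36% on chromosomes. When peaks closer than 500 bp were joined, 5413 unplaced regions remained, of which 343 (6.34%) held 3 or more peaks, against 2.42% on chromosomes. The longest such run held 9 peaks in 12715 bp at chrUn:30702715-30715429, and runs of 7 peaks lay at chrUn:21979842-21990350 and chrUn:25299419-25309279. After joining, unplaced scaffolds still had 86.6 regions per Mb, 1.41 times the chromosome mean. Gaps across the joints between scaffolds are not distances in the genome, and how many gaps span a joint was not analysed here.

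**Figure D3:**
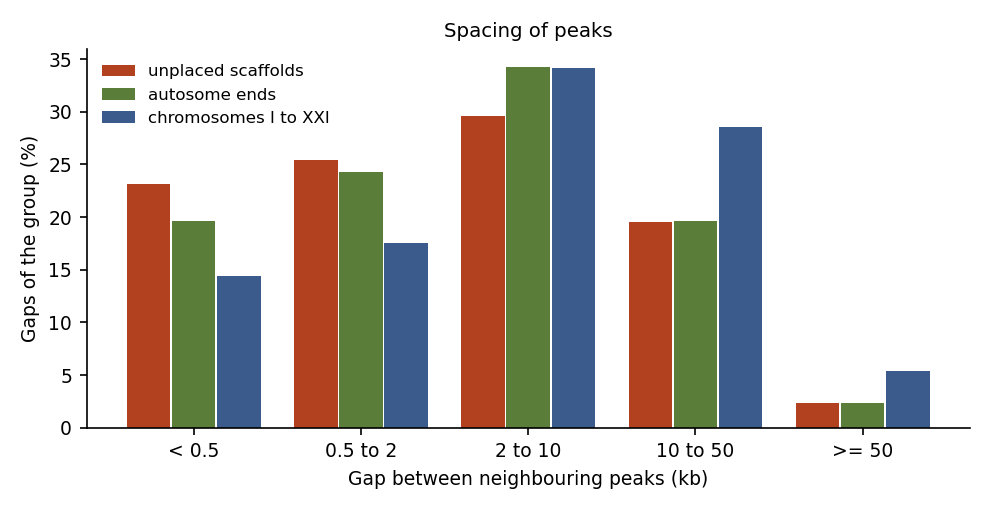
Share of gaps between neighbouring peaks (%) in 5 classes of gap length for unplaced scaffolds, autosome ends and chromosomes I to XXI. Gaps under 0.5 kb make up 23.2% on unplaced scaffolds, 19.6% at autosome ends and 14.4% on chromosomes, and gaps of 50 kb or more 2.31%, 2.34% and 5.36%.

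The excess of peaks was spread over most of the joined scaffolds, but the first 30% of their length had little of it. There, successive parts of 10% had 67.2, 74.4 and 74.8 peaks per Mb, near the chromosome mean of 71.8. Peaks with a background of at least 1.5 times the floor numbered 13.9, 24.9 and 25.9 per Mb in these parts. The highest chromosome value was 22.4. In 62 full steps of 1 Mb, the number of peaks ranged from 21 to 232 with a median of 112.5 (quartiles 75 and 143), against a median of 65.0 in 392 steps on chromosomes. More peaks than the chromosome mean of 71.8 were found in 48 of 62 unplaced steps (77.4%), against 43.0% of all 454 steps. More than the density of chromosome XI were found in 38 steps (61.3%), against 18.1% of all steps. The 10 densest steps held 42.5% of the excess of the steps above the mean, and without them the density was still 98.0 peaks per Mb. For peaks with a background of at least 1.5 times the floor, 50 of 62 unplaced steps were above the chromosome mean of 16.8, against 36.3% of all steps, and 45 were above the densest chromosome, against 22.9%. For the other peaks, 44 unplaced steps were above the chromosome mean of 55.0, against 48.2% of all steps, and 15 above the densest chromosome, against 14.8%. Weak peaks exceeded their chromosome mean of 42.4 in 50 unplaced steps, against 38.5% of all steps. Strong peaks exceeded theirs of 29.4 in 34 unplaced steps, against 42.7% of all steps.

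**Figure D4:**
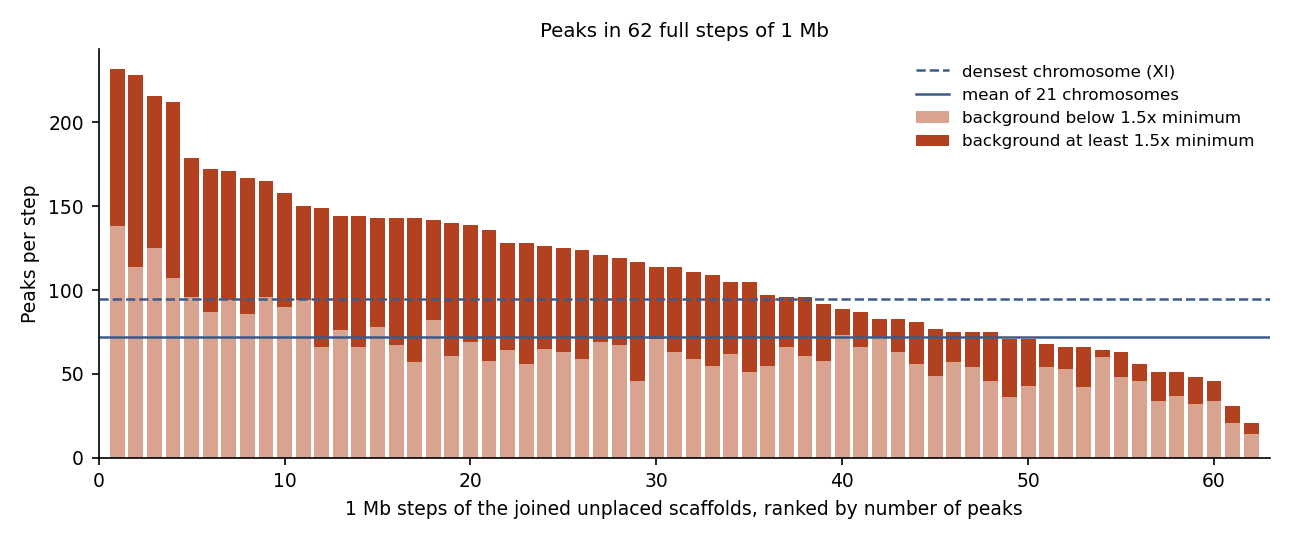
Peaks in the 62 full steps of 1 Mb of the joined unplaced scaffolds, ranked by number and split by background (below, or at least 1.5 times the floor). Lines mark the densest chromosome (XI, 94.9 per Mb) and the mean of 21 chromosomes (71.8); 38 steps stand above the first and 48 above the second.

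The densest step, from 30 to 31 Mb, held 232 peaks, of which 94 had a background of at least 1.5 times the floor. The next were the steps from 29 to 30 Mb with 228 peaks, 33 to 34 Mb with 216, 21 to 22 Mb with 212 and 40 to 41 Mb with 179. With steps counted from the start of each sequence, the densest step on a chromosome held 237, and among steps counted from autosome ends the densest held 278. The sparsest was the step from 16 to 17 Mb with 21 peaks, followed by 5 to 6 Mb with 31, 46 to 47 Mb with 46, 12 to 13 Mb with 48, and 6 to 7 and 9 to 10 Mb with 51 each. The longest stretches without a peak, of 316496, 295951 and 251754 bp, lay at chrUn:5170141-5486636, chrUn:14744338-15040288 and chrUn:9637145-9888898, all in the first 16 Mb.

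By measures of unevenness, unplaced scaffolds were within the range of chromosomes. The variance of peaks per step divided by their mean was 20.1, against 13.2 ± 7.51 on chromosomes (SD, n = 21, range 2.74 to 26.1), and the Gini coefficient, which is 0 for equal steps, was 0.235 against 0.201 ± 0.0433. Neighbouring steps had similar numbers of peaks (Pearson's r = 0.45 over 61 pairs of steps, given as a description), and 5 of 21 chromosomes had a higher r. Across the 62 steps, the number of peaks went with the share of peaks whose background was at least 1.5 times the floor (r = 0.60) and, less closely, with a lower median fold enrichment (r = −0.37). All steps come from the same merged libraries and neighbours can share a scaffold, so steps are not independent.

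Along the joined scaffolds, cut into 10 parts of 6.25 Mb, the peaks differed in character. The first 10% had a density of 67.2 per Mb, a median width of 984 bp, a median fold enrichment of 5.54, above every chromosome median, and 2.14% of backgrounds at 4 times the floor or more. From 10% to 20% and from 20% to 30% the densities of 74.4 and 74.8 per Mb were also within the chromosome range, but the median fold enrichments were 2.70 and 2.54. In these parts 33.5% and 34.6% of peaks had a background of at least 1.5 times the floor, against at most 27.9% on a chromosome. The part from 40% to 50% was the densest, with 180.0 per Mb, of which 83.1 per Mb had a background of at least 1.5 times the floor. It also had the most strong peaks, at 49.6 per Mb. The last 2 parts each had 123.4 peaks per Mb, and there 23.8% and 21.4% of peaks had a background of at least 4 times the floor. The 5 steps with most such peaks held 215 of the 712 (30.2%). They were the steps from 51 to 52 Mb with 51 peaks, 20 to 21 Mb with 50, 52 to 53 Mb with 48, and 11 to 12 and 59 to 60 Mb with 33 each. The densest stretch and the stretch of highest backgrounds were thus different parts of the joined sequence.

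**Figure D5:**
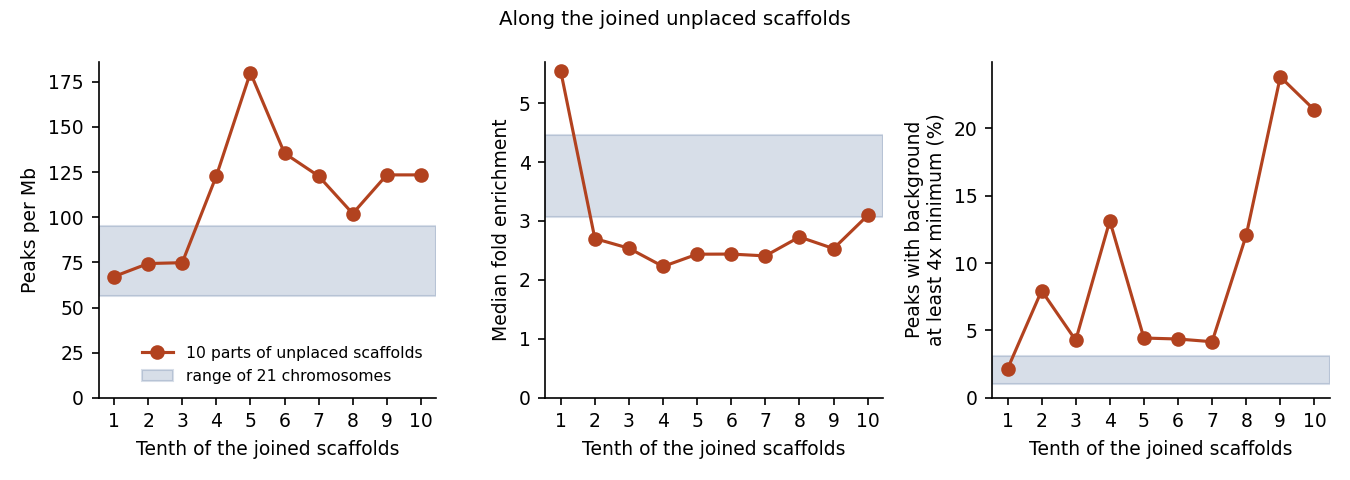
Peaks per Mb, median fold enrichment and share of peaks (%) with a background of at least 4 times the floor ("minimum") in 10 equal parts of the joined unplaced scaffolds (points), with the range of 21 chromosomes shaded. The first 10% of the length has a median fold enrichment of 5.54, the part from 40% to 50% the highest density of 180.0 per Mb, and the part from 80% to 90% the highest share of 23.8%.

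Set against autosome ends, taken as the first and last 2 Mb of each of 20 autosomes, unplaced scaffolds had a number of peaks and a median strength and width within the spread of the ends. They had 112.6 peaks per Mb, against 109.1 ± 26.3 at the ends (SD, n = 20 autosomes), and 19 of 40 single ends, which ranged from 41.5 to 208.5, were denser. The difference of 3.56 per Mb was well inside the spread between autosomes (two-sided exact permutation test over 21 sequences, p = 0.810). Median fold enrichment was 2.62 against 2.83 ± 0.456 (exact permutation p = 0.714) and median width 599 bp against 629 ± 67.9 bp (exact permutation p = 0.762). A p-value this high does not show that the values are equal. With all ends pooled, the upper part of the fold enrichments lay lower on unplaced scaffolds. Strong peaks made up 28.4% of unplaced peaks and 32.5% of those at ends, and the upper quartile was 5.79 on unplaced scaffolds and 7.54 at ends. The strong share of single ends lay on both sides of the unplaced value. In the first 2 Mb of chromosome IV 26 of 124.5 peaks per Mb were strong, and in the first 2 Mb of chromosome V 26.5 of 48. Among strong peaks the median fold enrichment was 9.55 on unplaced scaffolds and 11.6 on average at ends (exact permutation p = 0.0476, the smallest possible and not adjusted).

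Ends and unplaced scaffolds parted most at the highest backgrounds. A background of at least 4 times the floor was found in 10.1% of unplaced peaks, against 3.05% ± 1.2 at the ends (SD, n = 20 autosomes), and none of the 40 single ends was as high, the highest reaching 9.04%. The exact permutation p was 0.0476, the smallest that 21 sequences allow, and 0.286 after Benjamini-Hochberg adjustment over 6 comparisons with ends. At least 1.5 times the floor was reached by 43.2% against 32.1% ± 6.01, with 3 of 40 ends higher (exact permutation p = 0.143). In peaks per Mb, ends had fewer at 4 times the floor or more (11.4 on unplaced scaffolds, 3.33 at ends). Between 2 and 4 times they also had fewer (17.4 and 11.35). They had more between 1.5 and 2 times (19.8 and 21.2) and between the floor and 1.2 times (16.8 and 23.2). At 1.5 times or more, most single ends had fewer than the unplaced 48.6 per Mb, such as 7.5 in the first 2 Mb of chromosome V. Others had more, such as 85.5 in the first 2 Mb of chromosome I and 62.5 in the last 2 Mb of chromosome X.

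The unplaced sequence is a single unit beside 21 chromosomes, which limits every comparison with them. A two-sided exact permutation test over 22 sequences cannot give a p below 0.0455. Of 26 measures compared, 16 reached this value, among them peaks per Mb, width, gaps, the share of strong peaks and the shares of high background. Only 11 of the 26 were planned, and the other 15 were added after the data had been seen. Peak density and its split by fold enrichment were known from earlier results of these data. Many of the measures overlap, so the 16 are not separate findings. After Benjamini-Hochberg adjustment over the 26 measures none passed 0.05 (smallest adjusted permutation p = 0.0739). Median fold enrichment had p = 0.0909 by the same permutation test, with chromosome XIII slightly farther from the mean of the others than the unplaced sequence, and strong peaks per Mb had p = 0.364. The differences are therefore given as values outside or inside the range of the chromosomes.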

How the data were processed

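The only table used was the merged peak list. Per the paper's methods, the authors called peaks with MACS2, with a fixed shift and extension, on gasAcu1 alignments. The paper states that replicates of both ecotypes were pooled for its comparison with crossovers. That all ATACseq replicates were merged for the list used here is known from its peak names. Before peak calling, the deepest libraries were reduced to the depth of the shallowest, and duplicate fragments and the mitochondrial genome were left out. SAMtools is also named in the submitters' processing notes. For the ATACseq libraries, the aligner, the tool versions and the caller's control are not given in the sources used here; those stated for other assays of the study were not assumed to hold. The deposited list gives each peak's fold enrichment as a ratio, its −log10 p and −log10 q at the summit, and a score equal to 10 times the −log10 q in 100% of peaks (to within 1 unit). No q-value was above 0.05. Library depth was not analysed here.

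Width was end minus start, and sequence length the end of the last peak. Peaks were placed by their summits in steps of 1 Mb; the last 0.539 Mb of unplaced sequence, with 46 peaks, formed no full step. Summit reads and background were solved from fold enrichment and −log10 p (tolerance 0.02), and the 3 unmatched peaks (2 unplaced) kept their nearest solution. Backgrounds within 0.1% of the lowest value counted as at the floor. The exact permutation test moved the label "unplaced" over the sequences, comparing each with the mean of the others. Regions named are the 5 highest fold enrichments, the 5 widest peaks, the 5 densest and sparsest steps, the 3 longest empty stretches and the 3 longest runs. The members and measures were chosen with earlier results of these data known, and the background measures after seeing the data. Code was tested on simulated data. SciPy 1.17.1, NumPy 2.4.6 and pandas 2.3.3 were run under Python 3.11.15, with Matplotlib 3.10.9 for plots. Coordinates count from 1.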

Additional observations from a re-analysis of the deposited data

How the results depend on the processing

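Of 58 alternatives, 52 were planned and 6 chosen after seeing the data, and 45 kept the direction and the side of an unadjusted permutation p of 0.05 (or, for the excess, stayed near their value). Ratios below are unplaced scaffolds over the mean of the sequences they are set against. Restricted to strong peaks, peaks per Mb (ratio 1.09), median width (0.973) and median gap (0.947) no longer passed. Over all peaks these ratios were 1.57, 0.806 and 0.418. Fewer peaks entered the restricted setting, and whether that played a part was not tested. Against ends, the restriction to strong peaks gave 0.90 for peaks per Mb, a reversed direction, and 0.827 for fold enrichment, now past the limit. Ends of 1 Mb also reversed peaks per Mb, to 0.847, since ends were denser there (133 per Mb). Peaks per Mb fell short of the limit with backgrounds below 1.2 (1.09), 1.5 (1.16) and 2 times the floor (1.28). These settings restate the split by background given in the Results and are no separate support. Median fold enrichment passed it for strong peaks (0.872), for peaks at a q-value of 1e-10 or lower (0.722) and with peaks joined (0.722); for the last 2 the cause was not tested. Counting steps against the densest chromosome lowered the share above it to 61.3%.

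No paired analysis was possible because the list joins all 6 libraries, and leaving out single libraries was not run for the same reason. Depth, which limits the calling of weak peaks, was not analysed here. The share of high backgrounds rests on values recovered from the list and not on deposited coverage.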
